A study of Mus musculus with 13 samples.

Results

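The mouse gene Htr2c, which encodes a G protein-coupled receptor for serotonin, carries several miRNA hairpins in its introns. The hairpins mmu-mir-448, mmu-mir-764, mmu-mir-1264 and mmu-mir-1298 were followed here through both of their arms in 13 small RNA libraries from mouse brain. They were 4 of the 903 hairpins with reads, and their 8 arms were 8 of the 1514 pairs of a hairpin and a mature miRNA. The members were selected on their location and on measured values, since their levels in TgR and FVB/N hippocampi were known when they were chosen. Their hippocampal difference is therefore given as a description, with no test. The contrast between genotypes in the prefrontal cortex (PFC) was fitted across all pairs.

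TgR mice carry a transgene for the human "readthrough" splice variant of acetylcholinesterase, AChE-R, driven constitutively by the minimal promoter-enhancer of cytomegalovirus on the FVB/N background. Wild-type FVB/N mice served as controls. The 4 groups were the hippocampus of FVB/N mice (n = 3), the hippocampus of TgR mice (n = 3), the PFC of FVB/N mice (n = 3) and the PFC of TgR mice (n = 4), with 1 library per mouse and region and no treatment. Age, sex and behavior of the sequenced mice are not in the labels, nor is it stated whether a hippocampal and a PFC library came from the same mouse. Small RNA reads do not measure the transgene or the Htr2c mRNA, so neither was checked here.

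An intronic miRNA is cut out of its host gene's transcript as a hairpin, and the hairpin is then cut into a short duplex with a 5p and a 3p arm, of which one arm is usually kept more than the other. The arm that is kept guides silencing of mRNAs that pair with its seed, the bases near its 5′ end. Htr2c is known for strong expression in the epithelium of the choroid plexus, the tissue that secretes cerebrospinal fluid, and is also expressed in neurons. The mature miRNAs are shown because they carry all the reads described here. Sequences are from RefSeq on GRCm38.p6, all lie on the plus strand of the X chromosome, and the capitals mark the seed, bases 2 to 8.
miR-1298-5p, chrX:147064918-147064939: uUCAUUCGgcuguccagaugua
miR-1298-3p, chrX:147064970-147064991: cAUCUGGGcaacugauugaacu
miR-1264-3p, chrX:147010655-147010676: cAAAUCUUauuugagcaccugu
miR-448-5p, chrX:147158221-147158242: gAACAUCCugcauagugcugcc
miR-448-3p, chrX:147158281-147158302: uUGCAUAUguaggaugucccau
miR-764-5p, chrX:147002285-147002303: gGUGCUCAcauguccuccu
miR-764-3p, chrX:147002324-147002345: aGGAGGCCauaguggcaacugu

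Of the 8 arms, 7 were matched in RefSeq, and the other was miR-1264-5p. The 7 seeds were all distinct, so these miRNAs share a host gene but no seed. With other mature miRNAs in the libraries, miR-448-3p had bases 2 to 7 in common with miR-153-3p, a neuronal miRNA counted 6445 to 14969 times per library, whereas the partners of miR-448-5p (miR-499-3p) and miR-764-3p (miR-7062-5p) had at most 2 counts in any library. The abundant partner is shown in the same way, with bases 2 to 8 in capitals.
miR-153-3p: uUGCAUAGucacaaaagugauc

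The hairpins of mir-1298 and mir-448 are shown whole, with the mature arms in capitals, because the balance of their arms is described below.
mmu-mir-1298: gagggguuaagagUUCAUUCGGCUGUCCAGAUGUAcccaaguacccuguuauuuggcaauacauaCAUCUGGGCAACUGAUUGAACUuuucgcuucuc
mmu-mir-448: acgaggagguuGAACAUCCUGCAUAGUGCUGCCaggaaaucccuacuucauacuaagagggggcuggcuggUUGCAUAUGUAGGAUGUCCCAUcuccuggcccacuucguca

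In the GENCODE annotation of GRCm38, Htr2c spans chrX:146962513-147197277 on the plus strand. Each of the 4 hairpins lies on the same strand inside the gene and overlaps none of its exons. Counted on the transcript Htr2c-201, which has 6 exons, mir-764 (chrX:147002259-147002366), mir-1264 (chrX:147010601-147010686) and mir-1298 (chrX:147064905-147065002) share the 90.8 kb intron between exons 2 and 3. The hairpin mir-448 (chrX:147158210-147158321) lies in the 93.5 kb intron between exons 4 and 5. A further hairpin, mir-1912 (chrX:147009441-147009527), lies 46.9 kb from the start of the gene, between mir-764 and mir-1264. It is not among the 4 members and its counts are given separately.

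**Figure D1:**
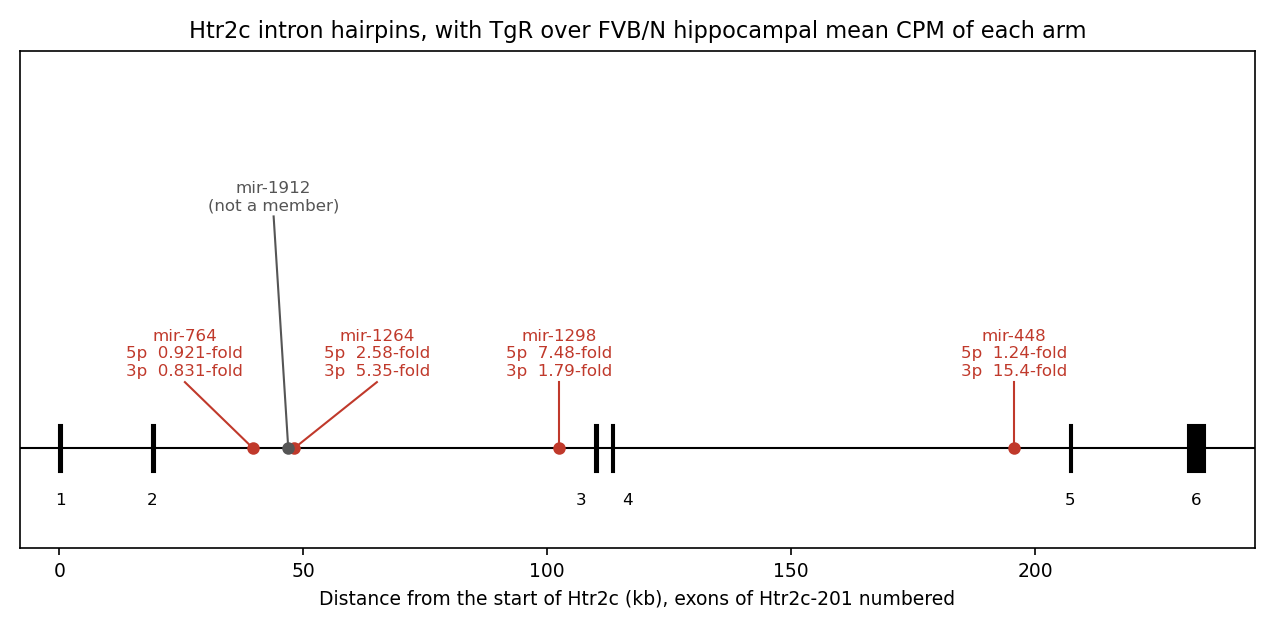
Position of the Htr2c intron hairpins in kb from the start of the gene (horizontal axis), with exons of Htr2c-201 as black boxes and, at each member, the ratio of mean CPM in TgR over FVB/N hippocampus (n = 3 each) for its 5p and 3p arm. The ratios range from 0.831 for miR-764-3p to 15.4 for miR-448-3p, and the arms with the lowest ratios belong to the hairpin nearest the start of the gene.

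Libraries held 8769851 to 18385985 counts, with a median of 15376927, and no library duplicated another. Levels are given in CPM, which are the deposited counts divided by library totals that were adjusted with TMM factors over all 13 libraries. The members took 0.00946% to 0.202% of the counts of a library, 830 to 37204 counts, and all 8 arms had reads in all 13 libraries. A floor of 3 counts corresponds to 0.163 to 0.342 CPM, and floors and intervals here cover counting error only. Within TgR hippocampus, replicates 1 and 3 stood apart from replicate 2 for most arms, so values are given with and without them.

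Most reads of the locus came from miR-1298-5p, the 5p arm of mir-1298. It made up 69.6% to 78.8% of the members' reads in FVB/N hippocampus, 74.2% to 86.2% in TgR hippocampus, 61.3% to 67.5% in FVB/N PFC and 65.2% to 67.6% in TgR PFC. Next was miR-1264-3p, with 7.90% to 21.1% of the members' reads in any library. Both arms of mir-764 and the 5p arm of mir-448 were each at or below 2.12% in every library.

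In the FVB/N hippocampus, miR-1298-5p was at 148.4, 122 and 149.2 CPM in replicates 1 to 3. In the TgR hippocampus it was at 1715 CPM in replicate 1, 190.5 CPM in replicate 2 and 1233 CPM in replicate 3. All 3 TgR libraries lay above all 3 FVB/N libraries, but replicate 2 lay close to them and the other two far above. The means were 1046 ± 779 and 139.9 ± 15.5 CPM (SD, n = 3 each), a ratio of 7.48. Set against the FVB/N mean, the ratio was 12.3 for TgR replicate 1, 8.81 for replicate 3 and 1.36 for replicate 2. In these bulk samples, a difference in the number of cells that make a miRNA cannot be told apart from a difference in its amount per cell.

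The other arm of that hairpin, miR-1298-3p, differed less. It stood at 12.08, 20.21 and 12.77 CPM in FVB/N hippocampi and at 32.55, 16.99 and 31.0 CPM in TgR hippocampi, a ratio of means of 1.79. TgR replicate 2 fell below FVB/N replicate 2, so the groups overlapped.

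The arm with the highest ratio was miR-448-3p, a rare miRNA in control tissue. FVB/N hippocampi held 2.904, 1.619 and 2.248 CPM, from 27 to 38 counts per library. TgR hippocampi held 59.54, 6.837 and 37.92 CPM, from 1114, 103 and 718 counts. The groups did not overlap and the ratio of means was 15.4. TgR replicate 2 too lay above all controls, at 3.03 times the FVB/N mean, the highest ratio of this library among the 8 arms. The opposite arm, miR-448-5p, ranged from 1.681 to 2.007 CPM in FVB/N and stood at 3.10, 1.328 and 2.535 CPM in TgR hippocampi. Here TgR replicate 2 was below every FVB/N library.

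Of mir-1264, miR-1264-3p was the more abundant arm. Its level was 19.49, 22.72 and 15.66 CPM in FVB/N and 157.1, 33.59 and 119.2 CPM in TgR hippocampi, with no overlap and a ratio of means of 5.35. Replicate 2 was at 1.74 times the FVB/N mean. The 5p arm, miR-1264-5p, had nearly equal values in FVB/N hippocampi, 5.503, 5.396 and 5.540 CPM. In TgR hippocampi it stood at 19.35, 5.709 and 17.38 CPM, a ratio of means of 2.58. For this arm replicate 2 exceeded the highest control only narrowly, and the groups did not overlap.

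The hairpin mir-764 did not share this pattern. Its 5p arm was at 1.911, 1.199 and 1.204 CPM in FVB/N and at 1.496, 1.261 and 1.215 CPM in TgR hippocampi, a ratio of means of 0.921 with full overlap. Its 3p arm had 2 to 8 counts in each hippocampal library and a ratio of 0.831. In the libraries where the 3 other hairpins were highest, TgR replicates 1 and 3, the 2 arms of mir-764 together had 35 and 30 counts, against 22 to 33 in FVB/N hippocampi.

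**Figure D2:**
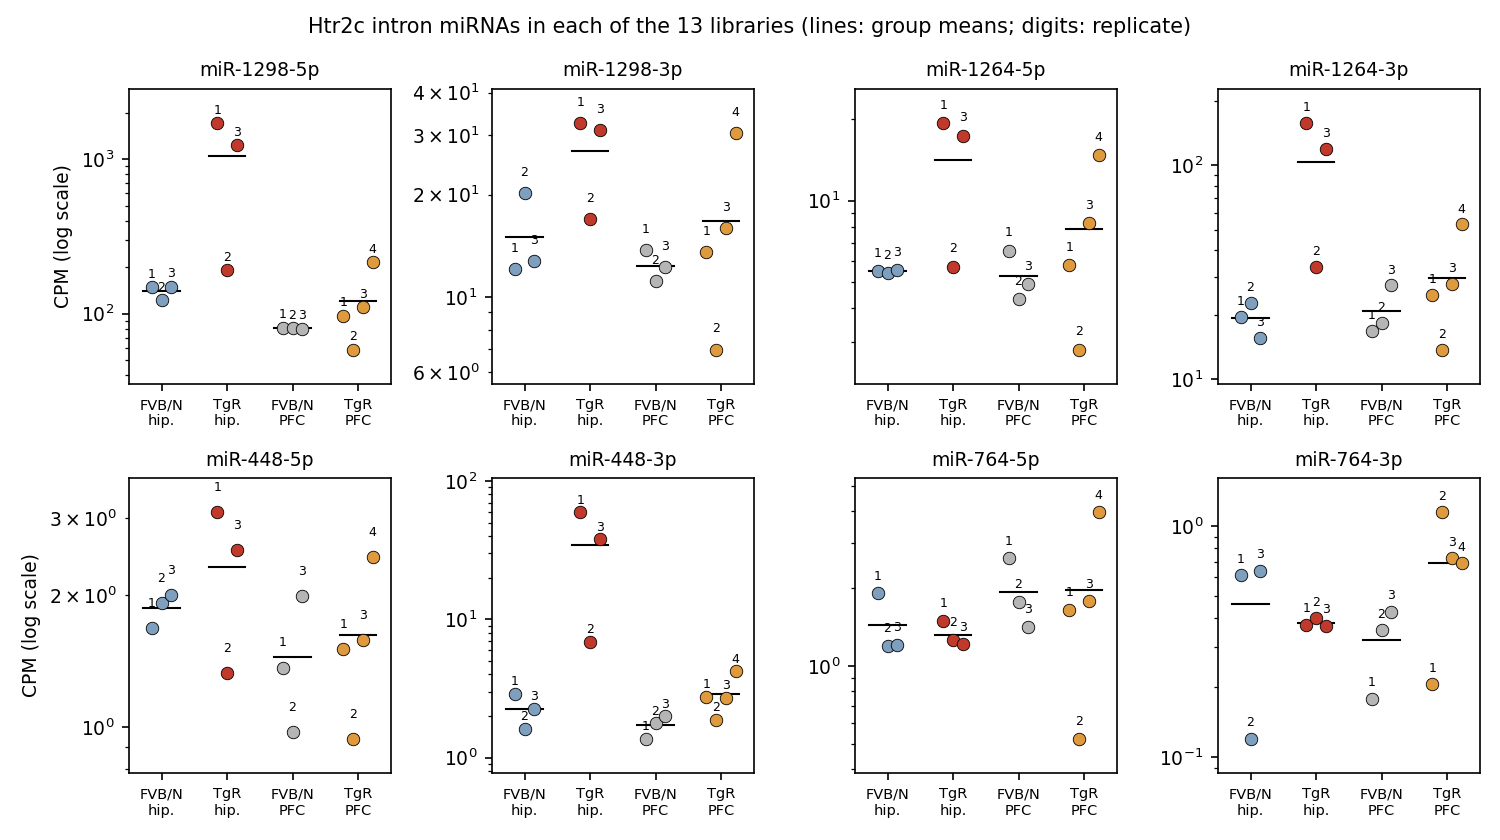
CPM of each arm (log scale, one panel per arm) in the 4 groups, with 1 point per library, the replicate number above it and a line at the group mean. TgR hippocampus replicates 1 and 3 are the 2 highest of the 13 libraries in 6 of the 8 panels, all but those of mir-764, and TgR PFC replicate 4 is the highest PFC library in 7 of 8.

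The fit of all 726 hippocampal pairs with enough reads held 7 of the 8 arms, since miR-764-3p was too rare. As a description of how the members were chosen, 4 of the 7 had TgR libraries all above FVB/N libraries (miR-1298-5p, miR-1264-5p, miR-1264-3p and miR-448-3p), where 10.5% of all pairs did. The median log2 fold change was 1.39 over the 7 arms and -0.0031 over all pairs. Because the members were chosen with this contrast known, nothing is read from these values.

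Summed over the 8 arms, the locus gave 192.6, 175.1 and 189.2 CPM in FVB/N hippocampi and 1988, 256.6 and 1442 CPM in TgR hippocampi. The ratio of means was 6.62, and 1.38 with replicate 2 as the only TgR library. Of the excess over the FVB/N mean, miR-1298-5p made up 87.4% in TgR replicate 1 and 87.0% in replicate 3. In the same libraries miR-1264-3p made up 7.65% and 7.95%, and miR-448-3p 3.18% and 2.84%. The composition of the excess was thus nearly the same in both libraries. In replicate 2, where the excess was small, these 3 arms made up 71.4%, 20.1% and 6.45%.

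The reads of mir-1912, the hairpin between mir-764 and mir-1264, were few. Its 3p arm had 6, 4 and 1 counts in FVB/N hippocampi and 97, 8 and 87 counts in TgR hippocampi. Its 5p arm had 1, 1 and 2 counts in FVB/N and 29, 5 and 22 counts in TgR hippocampi. Both arms were thus highest in the same 2 TgR libraries as 3 of the 4 members, and the hairpins on either side of mir-1912 differed from each other in this respect. In PFC neither arm exceeded 6 counts in any library.

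The balance between arms differed among the hairpins and, for mir-448, between the hippocampal groups. In FVB/N hippocampus the 3p arm took 63.3%, 45.8% and 52.8% of the reads of mir-448 in replicates 1 to 3. In TgR hippocampus it took 95.1%, 83.7% and 93.7%. The exact (Clopper-Pearson) 95% interval of the lowest TgR share, that of replicate 2 with 103 of its reads on the 3p arm, ran from 76.0% to 89.8%, and that of the highest FVB/N share from 49.9% to 75.4%. In PFC the share was 50.0% to 64.5% in FVB/N and 63.1% to 66.7% in TgR mice, where the groups overlapped. TgR replicate 2, whose levels lay much nearer to controls than those of the other 2 TgR hippocampi, was thus apart from controls in the arm balance of mir-448. These shares use the same hippocampal counts that were known when the members were chosen and were not tested.

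For mir-1264 the 3p arm took 73.9% to 80.8% of the reads in FVB/N hippocampus and 85.5% to 89.0% in TgR hippocampus, and these ranges did not overlap. How often arm shares separate in this way among hairpins outside the locus was not examined. Nothing is therefore read from the separation for mir-448 or mir-1264. For mir-1298, where 5p dominated, the 3p share was 7.52%, 14.2% and 7.88% in FVB/N and 1.86%, 8.19% and 2.45% in TgR hippocampi, with overlap through TgR replicate 2. In each of these 3 hairpins the arm with the higher mean in FVB/N hippocampus was the one with the larger ratio between genotypes there. For mir-448 the arms were near even in FVB/N hippocampus, at 2.26 CPM for 3p and 1.87 CPM for 5p. In FVB/N replicate 2 its 5p arm was the more abundant. For mir-764 the intervals were wide, with 22 to 35 reads per hippocampal library. Its 3p share was 9.09% to 34.8% in FVB/N hippocampi, and the 3 TgR hippocampi lay inside that range.

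**Figure D3:**
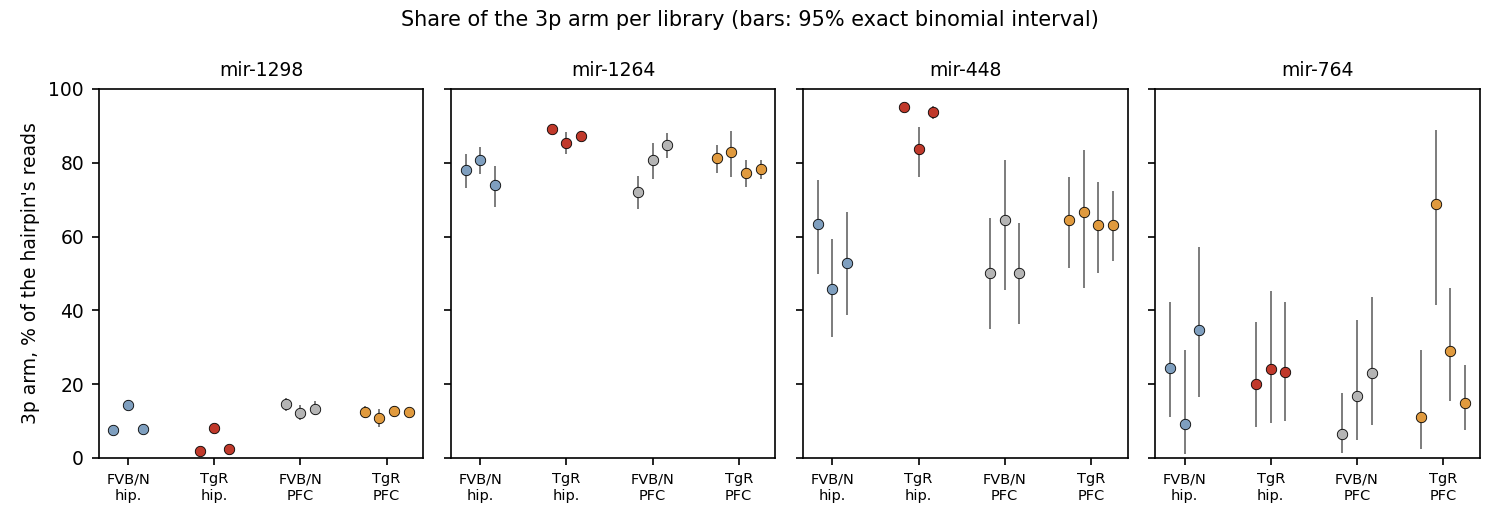
Share of the 3p arm among the reads of each hairpin (vertical axis, percent) per library in the 4 groups, with exact 95% binomial intervals for counting error. For mir-448 the 3 TgR hippocampi, at 83.7% to 95.1%, lie above every other library, of which the highest is at 66.7%.

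In PFC the question was whether the genotypes differed there too, in libraries other than the hippocampal ones. Whether these came from the same mice is not stated. The paper had already reported no differentially expressed miRNAs in TgR PFC, so this was not a blind test. The edgeR quasi-likelihood fit tested 730 pairs, 7 of the 8 arms among them. No member passed an adjusted p of 0.05, where 0.137% of all pairs did, and 1 member had an unadjusted p under 0.05. DESeq2 likewise called 0 members at an adjusted p of 0.05, with 1 under 0.05 before adjustment. None of the 7 had TgR libraries all above FVB/N libraries, where 3.29% of all pairs did. All 7 log2 fold changes were above 0, with a median of 0.48, against 0.0015 over all pairs, of which 50.5% were above 0. Without TgR PFC replicate 4, 4 of the 7 were above 0 and their median was 0.076. The 7 arms share a host gene and libraries and are not independent.

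The FVB/N PFC held 80.98, 80.3 and 79.7 CPM of miR-1298-5p, the narrowest spread of the 4 groups. The TgR PFC held 97.06, 58.58, 110.5 and 215.4 CPM, so that replicate 2 was below and the other 3 above all controls. The log2 fold change was 0.55 ± 0.36 (SE), with a 95% interval of -0.28 to 1.37 and an adjusted p of 1.00 in edgeR. Without TgR replicate 4 the log2 fold change was 0.13. With miR-1298-3p at 13.74, 11.16 and 12.23 CPM in FVB/N and 13.6, 6.996, 15.91 and 30.31 CPM in TgR PFC, the log2 fold change of this arm was 0.40 ± 0.41. It was -0.039 without TgR replicate 4.

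The arm nearest the threshold in PFC was miR-448-3p. It stood at 1.368, 1.771 and 1.991 CPM in FVB/N and at 2.748, 1.879, 2.706 and 4.196 CPM in TgR PFC, where only replicate 2 fell within the range of controls. The log2 fold change was 0.74 ± 0.30, with an unadjusted p of 0.037 and an adjusted p of 1.00 in edgeR, and 0.52 without TgR replicate 4. The counts behind these levels were 18 to 67 per library.

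In the remaining tested arms TgR replicate 4 was again the highest PFC library and TgR replicate 2 the lowest, while the order of the other libraries differed between arms. For miR-1264-3p, FVB/N PFC held 16.89, 18.33 and 27.44 CPM and TgR PFC held 24.87, 13.78, 27.92 and 52.85 CPM, a log2 fold change of 0.48 ± 0.40, or 0.076 without TgR replicate 4. For miR-1264-5p, with 4.338 to 6.541 CPM in FVB/N and 2.819 to 14.72 CPM in TgR PFC, it was 0.55 ± 0.47, or 0.082 without that library. For both arms most of the difference in PFC thus rested on 1 library. For miR-448-5p the log2 fold change was 0.15 ± 0.36 and for miR-764-5p 0.014 ± 0.52. Their adjusted p was 1.00 in edgeR. The 95% interval of the log2 fold change ran from -0.67 to 0.96 for miR-448-5p and from -1.17 to 1.20 for miR-764-5p, so that these libraries leave sizeable differences in either direction undetected.

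**Figure D4:**
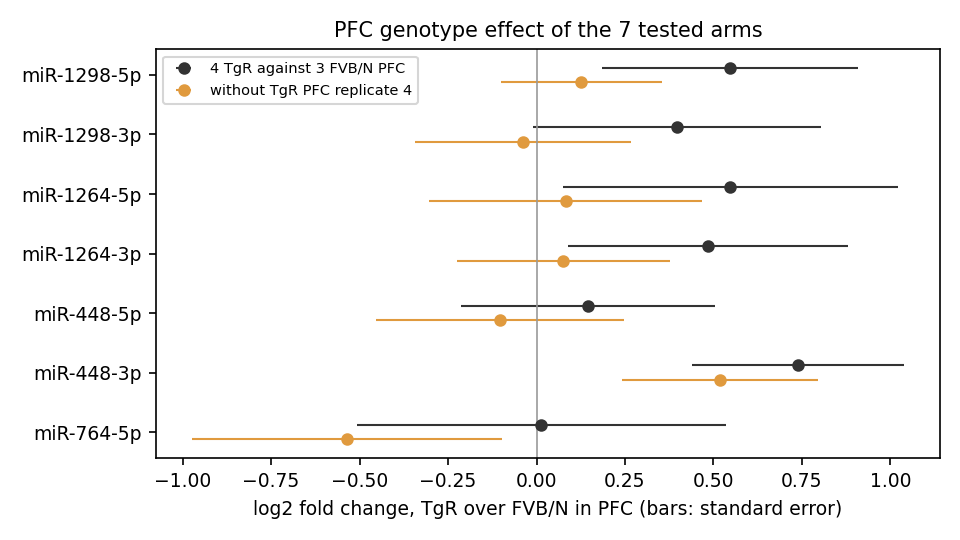
log2 fold change of TgR over FVB/N in PFC (horizontal axis, bars: SE) for the 7 tested arms, with all 7 libraries (dark) and without TgR PFC replicate 4 (orange). With all libraries the 7 values lie between 0.014 and 0.74, and without replicate 4 between -0.54 and 0.52.

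TgR PFC replicate 4 was the highest PFC library for 7 of the 8 arms. Its level was 2.55 times the mean of the other 6 PFC libraries for miR-1298-5p, 2.47 times for miR-1298-3p, 2.71 times for miR-1264-5p, 2.45 times for miR-1264-3p and 2.02 times for miR-448-3p. It was 1.75 times for miR-448-5p. Of mir-764, the 5p arm was at 2.43 times, from 63 counts, and the 3p arm at 1.36 times, below TgR replicates 2 and 3. The make-up of the excess of TgR PFC replicate 4 over the mean of the other 6 PFC libraries also differed from that in hippocampus. The hippocampal excess was taken over the FVB/N mean, so the baselines are unlike. In TgR PFC replicate 4, miR-1298-5p made up 67.1% of the excess, miR-1264-3p 16.0%, miR-1298-3p 9.24% and miR-448-3p 1.09%. The 3p share of mir-448 in this library, 63.2%, was within the range of the other PFC libraries.

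Within a region, the arms of mir-1298, mir-1264 and mir-448 followed the other hairpins across libraries, and mir-764 did so in PFC through its 5p arm alone. Pearson's r between the log2 CPM of an arm and that of the summed other hairpins, over the 6 hippocampal libraries, was 0.81 to 1.00 for the 6 arms of mir-1298, mir-1264 and mir-448, and -0.016 and -0.028 for the 5p and 3p arms of mir-764. Over the 7 PFC libraries it was 0.83 to 0.97 for those 6 arms, 0.81 for miR-764-5p and 0.049 for miR-764-3p. These are descriptions over libraries that share depth and scaling, and the hippocampal values rest on TgR replicates 1 and 3. In PFC, TgR replicate 4 was the highest and TgR replicate 2 the lowest library for most arms, and r without them was not computed.

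Between regions, the levels of most arms in FVB/N mice were alike. For miR-1298-5p the FVB/N hippocampus was at 1.74 times the FVB/N PFC, and the 2 groups did not overlap. For the other 7 arms the ratio lay between 0.743 (miR-764-5p) and 1.43 (miR-764-3p), and the regions overlapped in each. In order of mean level, miR-1298-5p ran from FVB/N PFC (80.3 CPM) through TgR PFC (120.4 CPM) and FVB/N hippocampus (139.9 CPM) to TgR hippocampus (1046 CPM). TgR PFC overlapped its neighbors on both sides, and TgR hippocampus overlapped neither FVB/N group but, through replicate 2, overlapped TgR PFC. In TgR mice the ratio of hippocampus to PFC was 8.69 for miR-1298-5p and 12.1 for miR-448-3p, and 1.58 and 2.37 with replicate 2 as the only hippocampal library.

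For miR-448-3p the mean was 1.71 CPM in FVB/N PFC, 2.26 CPM in FVB/N hippocampus, 2.88 CPM in TgR PFC and 34.8 CPM in TgR hippocampus. The 3 lower groups overlapped with each other, and TgR hippocampus overlapped with none. For miR-764-5p the order was different, with TgR hippocampus lowest (1.32 CPM), then FVB/N hippocampus (1.44 CPM), FVB/N PFC (1.94 CPM) and TgR PFC (1.97 CPM), and each neighbor overlapped the next.

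The nearest other miRNAs of the X chromosome with reads did not show the hippocampal difference, though several lie far from the gene. Outside Htr2c, 10 hairpins with reads, with 16 arms, were the nearest on either side, the closest at 4.22 Mb before and 3.35 Mb after it. The farthest lay 12.2 Mb before and 15.7 Mb after it. In each region 8 of their arms were tested and 0 passed an adjusted p of 0.05 in edgeR. Their log2 fold changes ran from -0.38 to 0.39 in hippocampus and from -0.21 to 0.41 in PFC. Among them, let-7f-5p is also listed under mmu-let-7f-1, so its reads cannot be assigned to the X chromosome alone. The arms miR-3475-3p, miR-7093-3p and miR-3473a were rare, at no more than 2.28 CPM on average in any group.

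The mature miRNAs whose levels followed the summed members most closely were named by Pearson's r of log2 CPM among 639 compared, over the 13 libraries. The first 5 were miR-204-3p (r = 0.97), miR-204-5p (0.93), miR-34c-5p (0.91), miR-34b-3p (0.89) and miR-34c-3p (0.88), and miR-3552 (0.87) came next. miR-204 is abundant in the choroid plexus and the retinal pigment epithelium, and the miR-34b and miR-34c pair is known from ciliated cells. These values rest on TgR hippocampus replicates 1 and 3, and over the 11 libraries without them r was 0.86 for miR-204-3p, 0.52 for miR-204-5p, 0.59 for miR-34c-5p, 0.55 for miR-34b-3p, 0.34 for miR-34c-3p and 0.70 for miR-3552. Over the 7 PFC libraries r was 0.85 for miR-204-3p, 0.28 for miR-204-5p, 0.70 for miR-34c-5p, 0.44 for miR-34b-3p, 0.0047 for miR-34c-3p and 0.96 for miR-3552. The summed members were highest in TgR PFC replicate 4 and lowest in TgR PFC replicate 2, and r without these was not computed. miR-3552 was rare, at 0.656 CPM on average in FVB/N and 0.883 CPM in TgR PFC.

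Markers of other cells were read beside these results. A list of choroid plexus and ciliated epithelium miRNAs had 13 entries, 10 with reads. Its summed level was 829 to 1190 CPM in FVB/N hippocampus and 4017, 1416 and 3594 CPM in TgR hippocampus replicates 1 to 3. The libraries highest for the Htr2c intron miRNAs were thus also the highest for this list. The list was chosen with earlier results of these data known, so the counts below are a description and not independent support. Of its 8 tested entries 4 passed an adjusted p of 0.05 as higher in TgR hippocampus in edgeR and 0 as lower. Over all pairs 1.93% passed as higher. All 4 were arms of miR-34b and miR-34c, the pair known from ciliated cells, while miR-204-5p, the most abundant entry, and miR-204-3p had adjusted p values of 0.078 and 0.085 in edgeR. By contrast miR-449a-5p was at 2.15 CPM on average in FVB/N and 1.41 CPM in TgR hippocampus, miR-211-5p at 0.950 and 1.35 CPM, miR-449b at 0 in every TgR library and miR-449c-5p at no more than 0.106 CPM. The part of choroid plexus tissue in the hippocampal difference was not tested.

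The relation was not the same in every library. In TgR hippocampus replicate 2, miR-34c-5p was at 346.6 CPM against 110.4 CPM on average in FVB/N, and miR-34b-5p at 13.9 against 2.98 CPM, while the Htr2c members summed to 1.38 times the FVB/N mean and miR-204-5p, at 984.3 CPM, lay within the FVB/N range of 661 to 1033 CPM. In TgR PFC replicate 4, where the members summed to 2.51 times the other PFC libraries, the choroid plexus list was at 697 CPM, within the 533 to 759 CPM of FVB/N PFC. Most of that sum was miR-204-5p, at 589 CPM, within its FVB/N PFC range of 441 to 658 CPM. By itself, miR-204-3p was at 12.4 CPM there, the highest PFC library for this arm, against at most 10.3 CPM in FVB/N PFC. In PFC 7 entries of the list were tested and 0 passed an adjusted p of 0.05 in edgeR.

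**Figure D5:**
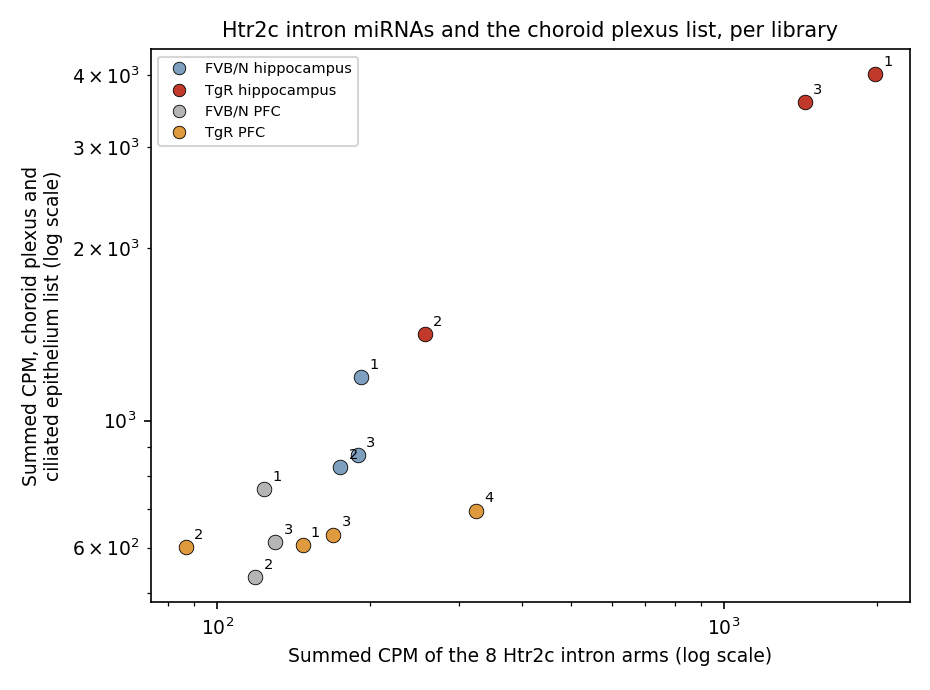
Summed CPM of the choroid plexus and ciliated epithelium list (vertical axis, log scale) against the summed CPM of the 8 Htr2c intron arms (horizontal axis, log scale), 1 point per library with its replicate number. TgR hippocampus replicates 1 and 3 lie apart from all others on both axes, and TgR PFC replicate 4 lies apart from the other PFC libraries on the horizontal axis alone.

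In hippocampus the summed lists of other cells were lower in TgR mice or overlapped between genotypes. Neuronal miRNAs (8 of 8 with reads) summed to 191549 to 236460 CPM in FVB/N and 184770 to 215960 CPM in TgR hippocampus, and 0 of 8 passed the test in edgeR in either direction. Blood cell miRNAs summed to 1597 to 1775 CPM in FVB/N and 890 to 1136 CPM in TgR hippocampus, with 2 of 8 passing as lower in edgeR. These were miR-144-5p and miR-451a, and 2 of the 8 had log2 fold changes above 0 (miR-150-5p at 0.25 and miR-223-3p at 0.055). That of miR-142a-3p was -0.022. Those of miR-144-3p, miR-144-5p, miR-451a, miR-486a-5p and miR-486b-5p all lay below 0, from -1.09 to -0.68. The list thus held a part that was lower in TgR hippocampus and a part that was not. Other epithelial miRNAs, with 233 to 614 CPM in FVB/N and 149 to 254 CPM in TgR hippocampus, had 2 of 8 passing as lower and 0 as higher in edgeR. Their median log2 fold change in hippocampus was -1.57, and 0 of the 8 tested entries were above 0. The share of all pairs passing as lower is not given, and these lists too were chosen with earlier results known. Nothing is therefore read from these counts. The part of these cells in the levels of the Htr2c intron miRNAs was not tested.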

How the data were processed

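Small RNA was sequenced from the hippocampus and PFC of TgR and FVB/N mice. Per the labels, libraries were made from total RNA with the NEBNext small RNA kit. The authors checked reads with FastQC, matched them to miRBase with miRExpress under default parameters, and deposited raw counts per pair of hairpin and mature miRNA, with no normalization and no genome build. Where a pair had no entry, its count was set to 0. Reads of a mature sequence that several hairpins encode appear under every one of them, which raises library totals, but each member is listed at a single hairpin. Reads carry no molecular identifiers.

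Groups and replicate numbers came from the sample titles. The members and the lists were chosen with earlier results of these data known. Each region was fitted on all pairs with edgeR 4.0.16 in R 4.3.3, with TMM factors, filterByExpr (minimum 10 counts), a quasi-likelihood test and Benjamini-Hochberg adjustment, with an adjusted p under 0.05 as the threshold. SE is the size of the log2 fold change over the square root of F. Levels are CPM with TMM factors over 13 libraries. Ratios are of group means, and shares have exact 95% binomial intervals. The fit was checked on simulated counts. Depth was 8769851 to 18385985 counts, and for abundant arms the spread between mice, not depth, limits the precision. All arms of the 4 hairpins were named, with the 10 mature miRNAs most like their sum as the pool for comparison. Hairpin positions were matched to GENCODE M21 and sequences to RefSeq, both on GRCm38, since the counts carry none. Alternatives were DESeq2 1.42.0, its size factors, library size only, no filter, all 13 libraries in one fit, a single row per mature miRNA, a replicate block and each library left out. Leaving out TgR hippocampus replicates 1 and 3 together was added after seeing the data.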

Additional observations from a re-analysis of the deposited data

Results flagged for a closer look

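Values of TgR PFC, the only group of 4 libraries, were examined for a library far from the other 3, in 13 sets of values (8 arms, their sum and the 3p share of 4 hairpins). One was found. The 3p share of mir-1298 was 10.7% in TgR PFC replicate 2 and 12.3% to 12.6% in the other 3 libraries. The gap to the nearest library was 0.846 of the range, and chance alone marks about 1 in 20 such sets. The 95% interval of this share, from 628 reads, was 8.36% to 13.4% and holds the other 3 values. TgR PFC replicate 4 was the highest library for 7 arms, but no arm's level met the same criterion.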

How the results depend on the processing

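In PFC no member passed the threshold under any of the 14 alternatives, with adjusted p from 0.65 to 1.00 (edgeR or DESeq2), and the direction did not hold for 4 of 7 arms. With a replicate block the log2 fold change was -0.014 for miR-1264-5p, -0.11 for miR-1298-3p, -0.11 for miR-448-5p and -0.59 for miR-764-5p, and 0.077 for miR-1298-5p and 0.51 for miR-448-3p. The deviations of same-numbered TgR and FVB/N libraries from their genotype's mean log CPM correlated at -0.27, 0.43 and 0.042 in PFC. In hippocampus they correlated at -0.093, 0.17 and -0.027. These values give no clear sign that the numbers pair the mice, but with so few libraries they cannot settle it. The deposited FVB/N PFC counts also carry numbers that differ from the titles, which makes the block uncertain there, and the block also leaves the unpaired TgR replicate 4 without weight in the difference. For miR-764-5p the value was -0.014 with DESeq2, -0.067 with library size only, -0.0097 without a filter and -0.0058 with a single row per mature miRNA. Leaving out 1 library gave -0.039 to 0.63 for miR-1298-3p, -0.10 to 0.42 for miR-448-5p and -0.54 to 0.33 for miR-764-5p. The lowest value came without TgR replicate 4 in each.

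In hippocampus the log2 ratio of means held its direction for the sum and for 6 arms when any 1 library was left out (2.35 to 3.40 for miR-1298-5p, 3.31 to 4.43 for miR-448-3p), but ran from -0.23 to 0.14 for miR-764-5p and from -0.72 to 0.058 for miR-764-3p, the latter 0.075 with the mean of same-numbered differences (replicate block). With TgR replicates 1 and 3 both left out it was 0.45 for miR-1298-5p, 0.059 for miR-1264-5p, 0.80 for miR-1264-3p, 1.60 for miR-448-3p, 0.47 for the sum and -0.49 for miR-448-5p. The log2 ratio of TgR hippocampus to TgR PFC was then 0.50 for the sum, -0.47 for miR-1264-5p and -0.29 for miR-448-5p. For the log2 region ratio in FVB/N, leaving out 1 library gave -0.063 to 0.25 for miR-1264-5p and -0.25 to 0.13 for miR-1264-3p, and in TgR -0.89 to 0.0072 for miR-764-5p. A single row per mature miRNA, which lowers library totals, raised the summed level to 305 CPM in FVB/N hippocampus, 202 CPM in FVB/N PFC and 287 CPM in TgR PFC. With 3 or 4 mice per group and 2 to 11 counts of miR-764-3p per library, depth limits that arm. How far depth or the spread between mice limits the other low arms was not tested. The cause of the differences among TgR libraries was not tested.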
